A study of Mus musculus with 8 samples.

Results

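The 10 pairs formed by mouse chromosomes 12, 15, 16, 18 and 19 were taken from the 231 chromosome pairs (each chromosome with itself included) counted in a Hi-C experiment on embryonic stem cells, and were set against the other 161 pairs of different autosomes. The 5 chromosomes were chosen because they carry nucleolar organisers in laboratory mice. The rule itself used no measured value, but it was set with earlier results of these data known. Nucleolar organisers are the tandem arrays of ribosomal RNA genes around which a nucleolus forms. Mouse chromosomes have their centromere at one end, and the arrays lie close to it, so that organisers of several chromosomes can be gathered at the same nucleolus together with the heterochromatin beside them. Which chromosomes carry active arrays differs between mouse strains, and it was not measured in the cells used here.

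Hi-C counts ligated pairs of DNA ends that lay close together in the nucleus, and a pair whose ends map to different chromosomes is a trans pair. All libraries came from E14tg2A, a feeder-free line of the 129/Ola strain, or from its derivatives, grown on gelatin with serum and LIF, fixed with formaldehyde and cut with DpnII. The groups were WT (Ring1B+/+, 4 libraries), I53A (Ring1B I53A/I53A, 2 libraries) and KO (Ring1B -/-, 2 libraries), each library labelled as a biological replicate. The labels do not say whether replicates came from separate cultures, so p-values measure only the spread between these libraries, and each RING1B genotype is represented by derivative cells of 1 parental line. RING1B is the ubiquitin ligase subunit of PRC1, a Polycomb complex that marks histone H2A and compacts repressed chromatin. The I53A substitution impairs its ligase activity while the protein remains, and the KO cells lack the protein. The comparisons ask whether contacts among these chromosomes differ when the ligase activity or the whole protein is missing.

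The libraries held 12496924 to 44057963 trans pairs between autosomes, the WT libraries being the shallowest. Each of the 10 pairs was counted 32226 to 176669 times per library, and the 95% interval of a log2 ratio from counting alone extended 0.0067 to 0.016 to either side. Together the 10 pairs took 3.97%, 3.91%, 3.32% and 3.35% of autosomal trans pairs in WT 1 to WT 4. The share was 3.26% and 3.37% for I53A and 3.31% and 3.30% for KO. The Wilson 95% interval of a share, which covers counting error only, reached no more than 0.00994 percentage points from it. WT 1 and WT 2 stood apart. Chromosome 15 held 6.30% and 6.33% of the ends of their autosomal trans pairs, against 4.32% to 4.48% in the other 6 libraries, and 25.6% and 26.0% of their unique pairs were of the rescued type (reads that themselves span a ligation junction), against 30.6% in I53A 2 and 43.1% to 47.2% in the other 5 libraries. Both differences fall on the same WT libraries and cannot be told apart within WT.

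To remove such differences in coverage, each count was divided by the count expected from the trans totals of both chromosomes over chromosomes 1 to 19. A log2 ratio of 0 means as many contacts as the totals predict, and 0.10 is about 7% more. The expected counts of a chromosome sum to its observed total, so the ratios of pairs that share a chromosome are linked: when some partners lie above 0, others must lie below. The counts are for whole chromosomes. They do not show where on a chromosome the ends lay, and in the build used (NCBIM37, also called mm9) the first 3 Mb of each of these autosomes, next to the centromere, are unsequenced. There the chromosomes run from position 1 to 121257530 (chromosome 12), 103494974 (15), 98319150 (16), 90772031 (18) and 61342430 (19).

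The 10 pairs divided into 6 high pairs, those among chromosomes 12, 16, 18 and 19, and 4 pairs with chromosome 15 that lay on both sides of 0. Averaged over the 8 libraries, the log2 ratio of the 6 pairs lay between 0.093 and 0.147, with a mean of 0.11. The 4 chromosome 15 pairs ran from -0.076 to 0.071, with a mean of -0.00088. The median of all 10 was 0.094, beside -0.0041 for all pairs of autosomes, -0.011 for the 70 pairs with 1 of the 5 chromosomes and -0.00045 for the 91 pairs with none. Of the 10 pairs 8 were above 0, against 25 of 70 and 45 of 91.

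**Figure D1:**
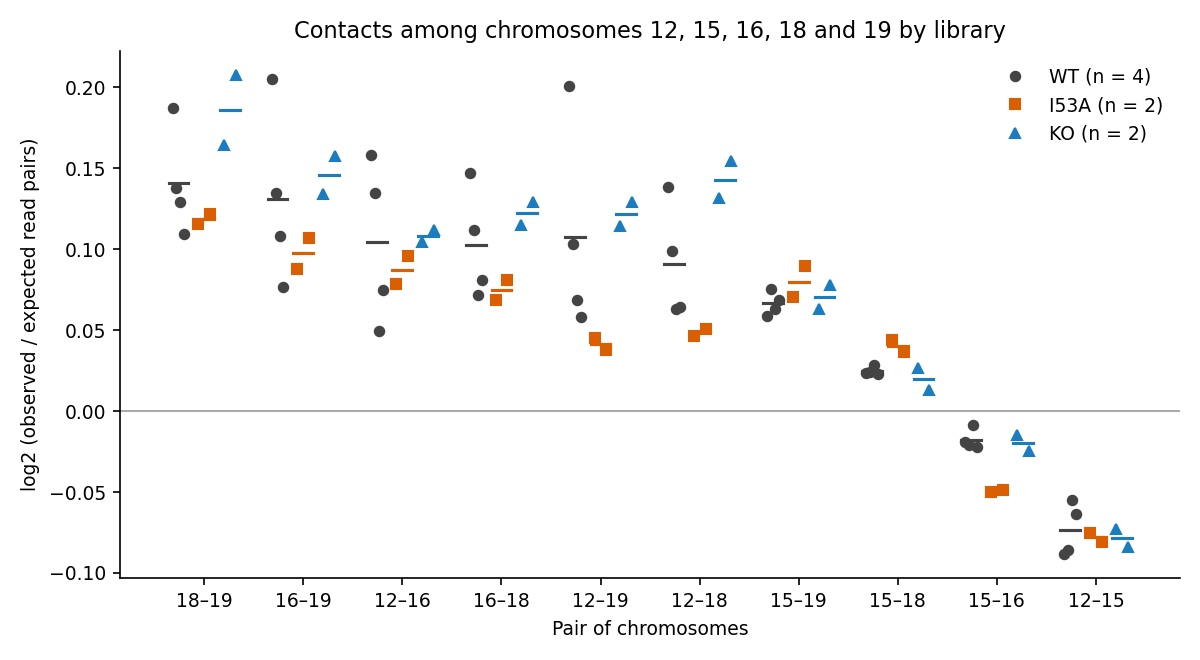
Log2 of observed over expected read pairs (vertical axis) for each of the 10 pairs of chromosomes (horizontal axis, in order of the mean over 8 libraries). Each point is a library, short bars are group means, and the groups are WT (n = 4), I53A (n = 2) and KO (n = 2); the 6 pairs without chromosome 15 lie above 0 in every library and KO points lie above I53A points in each of them.

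Chromosomes 18 and 19, the shortest autosomes, formed the strongest of the 10 pairs. The pair 18 with 19 had log2 ratios of 0.187, 0.138, 0.129 and 0.110 in WT 1 to WT 4. I53A 1 and 2 had 0.115 and 0.122, and KO 1 and 2 had 0.164 and 0.208. Over all 8 libraries this was 10.7% more contacts than expected, and the pair ranked between 1 and 3 of all autosome pairs. In counts, KO 2 had 108678 pairs where 94095 were expected, and WT 4 had 48737 where 45175 were expected. The KO libraries were above both I53A libraries and above WT 2, 3 and 4, but WT 1 lay between them.

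The pair 16 with 19 came next. Its log2 ratios were 0.205, 0.135, 0.108 and 0.077 across the WT libraries, while I53A gave 0.088 and 0.107 and KO gave 0.134 and 0.158. The WT libraries alone spanned the values of both other groups. The pair 16 with 18 had 0.147, 0.112, 0.072 and 0.081 across the WT libraries, while I53A gave 0.068 and 0.081 and KO gave 0.115 and 0.129. Here too the WT range enclosed both KO values, and it held the higher I53A value.

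Chromosome 12 is the longest of the 5, at 121 Mb, and has few genes, with 5.81 protein-coding genes per Mb. Its pair with 16 had log2 ratios of 0.158, 0.135, 0.050 and 0.075 across the WT libraries, while I53A gave 0.079 and 0.096 and KO gave 0.104 and 0.112. WT 1 and WT 2 were above all RING1B libraries, and WT 3 and WT 4 were below them. Its pair with 18 had 0.138, 0.099, 0.063 and 0.064 across the WT libraries, while I53A gave 0.046 and 0.051 and KO gave 0.131 and 0.154. Both I53A libraries were below every WT library, and WT 1 lay between the KO libraries. Its pair with 19 varied most between libraries, with 0.201, 0.103, 0.069 and 0.058 across the WT libraries, while I53A gave 0.045 and 0.038 and KO gave 0.115 and 0.129. The I53A libraries were again the lowest, and WT 1 was the highest of all. WT 1 was the highest WT library in each of the 6 pairs without chromosome 15.

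The pairs of chromosome 15 varied less from library to library. The pair 12 with 15 was low throughout, with log2 ratios of -0.088, -0.086, -0.055 and -0.064 across the WT libraries, while I53A gave -0.075 and -0.081 and KO gave -0.073 and -0.084. Its contacts differed from the expected number by -5.11%, and it ranked between 163 and 169 of all autosome pairs. The pair 15 with 16 had -0.019, -0.021, -0.0087 and -0.022 across the WT libraries, while I53A gave -0.050 and -0.049 and KO gave -0.015 and -0.024, so that both I53A libraries were below the other 6. The pair 15 with 18 had 0.023, 0.024, 0.028 and 0.023 across the WT libraries, while I53A gave 0.044 and 0.036 and KO gave 0.027 and 0.013. Here both I53A libraries were above the other 6. The pair 15 with 19 had 0.059, 0.075, 0.063 and 0.069 across the WT libraries, while I53A gave 0.070 and 0.089 and KO gave 0.063 and 0.078, and its groups overlapped.

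Among all autosome pairs, the 6 pairs of chromosomes 12, 16, 18 and 19 were the top 6 in WT 1, WT 2, KO 1 and KO 2. In WT 3, WT 4 and both I53A libraries, 3 of them were among the top 6. In 7 libraries all 6 were in the top 20, and in I53A 2 the number was 5, with 12 with 19 at rank 25.

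**Figure D2:**
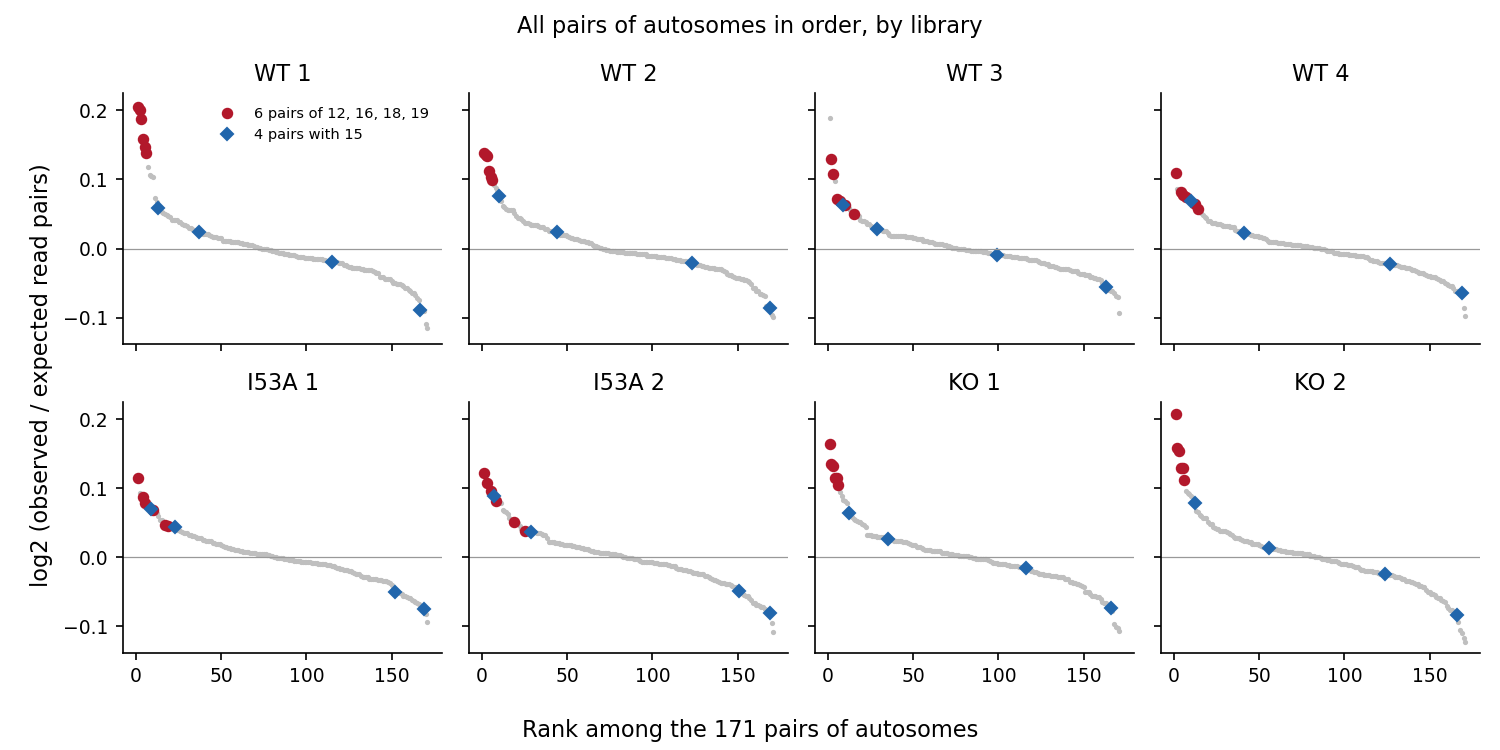
Log2 of observed over expected read pairs (vertical axis) for all pairs of autosomes in order of rank (horizontal axis), with a panel for each library. Red circles are the 6 pairs of chromosomes 12, 16, 18 and 19, blue diamonds the 4 pairs with chromosome 15 and grey points the other 161 pairs; the red points are the top 6 in WT 1, WT 2, KO 1 and KO 2.

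Each chromosome's strongest partner was then sought. Among the other 4, chromosomes 18 and 19 were each other's strongest partner, in 8 of 8 libraries for 18 and in 7 of 8 for 19. For chromosome 18, the lead of 19 over 16 was 0.046 ± 0.017 (SD, n = 8). For chromosome 19, the lead of 18 over 16 was 0.020 ± 0.020, present in 7 of 8 libraries. Chromosome 16 had 19 as its strongest partner in 6 of 8 libraries, by 0.026 ± 0.023 over 12. Below it, 12 and 18 differed by 0.00029 ± 0.017, with 12 ahead in 4 libraries, so no order was given to them. For chromosome 12 the partners 16, 19 and 18 could not be ordered: 16 led 19 by 0.0063 ± 0.034 and 19 led 18 by 0.0012 ± 0.027. The strongest was 16 in 4 libraries, 19 in 2 and 18 in 2.

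These partners also led among all 18 autosomal partners. The 3 highest partners of chromosome 16 were 12, 18 and 19 in 8 of 8 libraries. The same held for the 3 highest partners of chromosome 12 in 7 libraries, of 18 in 6 and of 19 in 4, taking for each the other 3 of the 4 chromosomes. Outside the 5, the best partner of chromosome 12 was 1, at 0.036 averaged over libraries. The best outside partner of 16 was 14 at 0.027, that of 18 was 14 at 0.049, and that of 19 was 17 at 0.070. At the other end, chromosome 11 was the lowest partner of both 12 (-0.095) and 16 (-0.058) in 8 of 8 libraries.

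Chromosome 15 did not share this order. Among the other 4 its strongest partner was 19 in 8 of 8 libraries, ahead of 18 by 0.044 ± 0.012. Chromosome 18 was ahead of 16 by 0.054 ± 0.022, and 16 was ahead of 12 by 0.050 ± 0.016, each in 8 of 8 libraries. Its highest partner overall was chromosome 11, with a mean of 0.095 and a range of 0.086 to 0.108, highest in 8 of 8 libraries. Its lowest partner was 12 in 7 of 8 libraries. Chromosome 11 was thus the best partner of 15 and the poorest of 12 and 16.

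**Figure D3:**
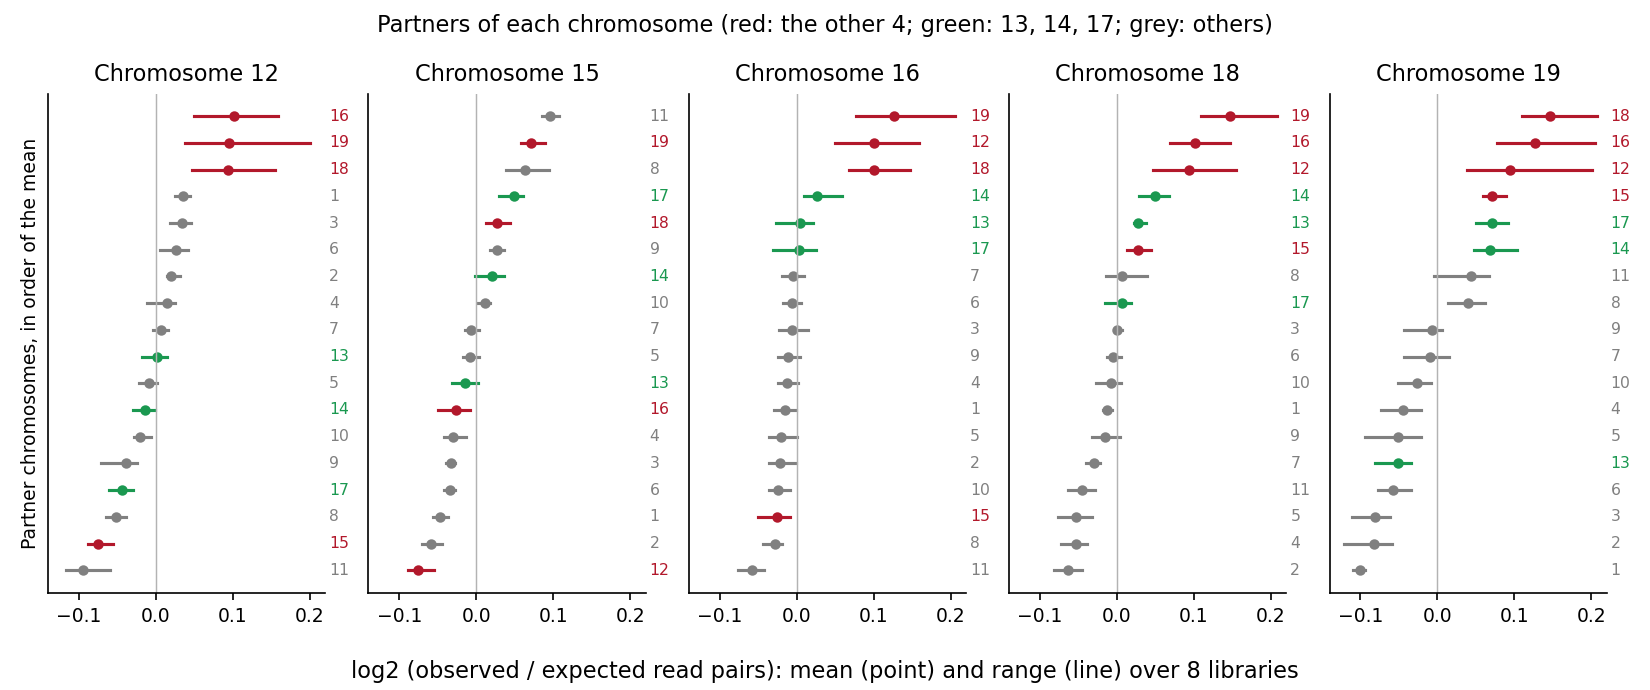
Log2 of observed over expected read pairs (horizontal axis) of chromosomes 12, 15, 16, 18 and 19 with each of their 18 autosomal partners (rows, in order of the mean). Points are means and lines the range over 8 libraries, the other 4 of the 5 chromosomes are red, chromosomes 13, 14 and 17 green and the rest grey; for 12, 16, 18 and 19 the top 3 partners by mean are red, and for 15 the top partner is 11.

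Chromosomes 13, 14 and 17, which at 120.3, 125.2 and 95.3 Mb are close in length to chromosomes 12 and 16, were used as a comparison. Their 15 pairs with the 5 chromosomes had a median log2 ratio of 0.0059 averaged over libraries, and ranged from -0.051 for 13 with 19 to 0.070 for 17 with 19. On these means the highest of the 15 was below the lowest of the 6 pairs without chromosome 15. Each of the 15 holds 1 of the 5 chromosomes, so the expected counts link them to the 6, and part of the gap can come from that. The 3 pairs of 13, 14 and 17 among themselves had a median of 0.0097 and ranged from -0.015 to 0.010. In single libraries the highest of the 15 was also below the lowest of the 6 in WT 1, WT 2, KO 1 and KO 2. In WT 3, WT 4 and both I53A libraries 17 with 19 (0.063 to 0.079) was above the lowest of the 6 (0.038 to 0.058). So was 15 with 17 in WT 4 (0.060), I53A 1 (0.049) and I53A 2 (0.057). In I53A 1 and I53A 2 the pairs 14 with 18 (0.059 and 0.067) and 14 with 19 (0.055 and 0.068) were above it as well. Chromosome 19 met 15, 17 and 14 about equally often: 15 with 19 had a mean of 0.071 ± 0.0099 (SD, n = 8), 17 with 19 of 0.070 ± 0.013 and 14 with 19 of 0.069 ± 0.019. Chromosome 12 differed from 19 in this, with -0.045 ± 0.011 for 12 with 17 and -0.014 ± 0.0095 for 12 with 14.

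Autosomes of like length met each other more often than expected in these libraries, and long ones met short ones less often. A line through all autosome pairs on the product of both chromosomes' centred log10 lengths had an R2 of 0.354 on the mean of the 8 libraries. The line gave the 6 pairs a mean of 0.035, and they lay above it by 0.075 on average. All 6 were above the line in each of the 8 libraries. On the mean of the 8 libraries the distance was largest for the pairs of chromosome 12, which with 16, 18 and 19 lay 0.096, 0.087 and 0.083 above the line and took ranks 1, 4 and 5 of all pairs. It was smaller for 16 with 18 (0.069), 16 with 19 (0.059) and 18 with 19 (0.058). The line gave 12 with 16, 18 and 19 only 0.0052, 0.0063 and 0.012, so their distances were close to their ratios. It gave 16 with 19 and 18 with 19 values of 0.068 and 0.089, and it was fitted with the 6 pairs included. So 18 with 19 had the highest mean ratio and ranked 12 by distance from this line. The order varied between libraries: 12 with 19 ranked 18 and 35 in I53A 1 and I53A 2. In I53A 2 its distance of 0.027 was the smallest of the 6, and in WT 3 the smallest was 12 with 16 (0.045). In WT 4 and I53A 1 the smallest was 16 with 19, at 0.020 (rank 41) and 0.031 (rank 28). The pairs of chromosome 15 with 19, 18, 16 and 12 lay at 0.017, 0.0019, -0.046 and -0.080 from the line. A line with GC content added (R2 of 0.423) left the 6 pairs 0.076 above it.

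Gene density differed among the 4 chromosomes, and its part in their contacts was not tested. By protein-coding genes per Mb, chromosomes 18, 12 and 16 ranked 19, 18 and 15 of the 19 autosomes, from the most to the fewest, while chromosome 19 ranked 3 with 11.8 per Mb. Chromosome 15 ranked 12, with 7.70 per Mb.

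**Figure D4:**
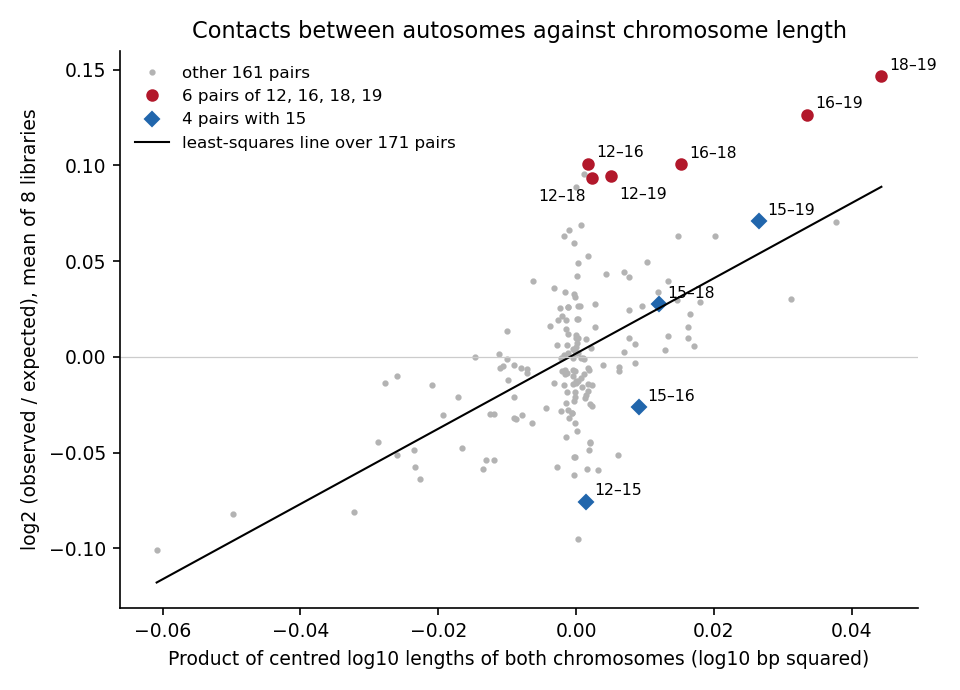
Mean log2 of observed over expected read pairs over 8 libraries (vertical axis) against the product of the centred log10 lengths of both chromosomes (horizontal axis), for all pairs of autosomes with the least-squares line. Red circles are the 6 pairs of chromosomes 12, 16, 18 and 19 and blue diamonds the 4 pairs with 15; all 6 red points lie above the line, and 12 with 15 lies at -0.080 from it.

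With chromosome 15 left out and the expected counts computed over the other 18 autosomes, the 6 pairs kept their levels. Their mean was 0.172, 0.120, 0.082 and 0.078 in WT 1 to WT 4. I53A 1 and 2 had 0.074 and 0.082, and KO 1 and 2 had 0.127 and 0.148. The group means were 0.113 ± 0.044 (SD, n = 4) for WT, 0.078 ± 0.0063 (n = 2) for I53A and 0.138 ± 0.015 (n = 2) for KO. The WT libraries overlapped I53A and enclosed both KO libraries: WT 3 and WT 4 lay near the I53A libraries, of which I53A 1 was the lowest of all 8, WT 1 above KO and WT 2 just below it. The strongest partners were as before, 19 for 16 (7 of 8 libraries) and for 18 (8 of 8), 18 for 19 (7 of 8) and 16 for 12 (4 of 8). With chromosome 15 kept, the mean of all 10 pairs was 0.068 ± 0.025 for WT, 0.046 ± 0.0042 for I53A and 0.082 ± 0.0076 for KO. The SD over the 91 pairs with none of the 5 chromosomes was 0.029 to 0.034 in every library, while the mean of the 6 ran from 0.074 to 0.172.

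The genotypes were compared pair by pair with edgeR's quasi-likelihood test across all pairs of autosomes, at a Benjamini-Hochberg adjusted p under 0.05. The largest difference between genotypes was that chromosomes 12 and 18 met less often in I53A than in KO. Its log2 difference was -0.093 ± 0.015 (SE, edgeR adjusted p = 0.00235), a change of -6.27% in contacts. It was also the largest difference among all autosome pairs in that comparison. Over the alternative fits the adjusted p ran from 1.50e-16 to 0.0708, and it missed the threshold only with limma on the log2 ratios. The smallest value came from edgeR with only the 2 groups compared. There the spread was estimated from 2 libraries in each group, so the value says little about strength. The pair 15 with 16 was lower in I53A than in KO as well, with a change of -2.03% (-0.030 ± 0.0066, edgeR adjusted p = 0.00981). That call was lost when I53A 1, I53A 2 or KO 1 was left out, with adjusted p of 0.0709, 0.0990 and 0.0797, while the difference stayed between -0.034 and -0.025 whichever library was left out. It was also lost with limma on the log2 ratios (adjusted p = 0.0649), among libraries of high rescued share (0.0874) and with TMM scaling in place of expected counts (0.965).

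The other pairs between I53A and KO did not pass. Nearest to the threshold were 12 with 19 (-0.080 ± 0.025, edgeR adjusted p = 0.0550), 16 with 18 (-0.046 ± 0.015, adjusted p = 0.0679), 18 with 19 (-0.066 ± 0.022, adjusted p = 0.0743) and 15 with 18 (0.019 ± 0.0074, adjusted p = 0.112). In all, 2 of the 10 pairs were called, both lower in I53A, beside 11.1% of all pairs (7.02% higher and 4.09% lower). In each of the 6 pairs without chromosome 15 both I53A libraries were below both KO libraries. Over the 10 pairs the groups did not overlap in 8, beside 62% of all pairs. The median difference was -0.057 for the 6 pairs, -0.038 for the 10 and 0.00021 for all pairs of autosomes.

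Against WT, 1 of the 10 pairs was called in each RING1B line. In I53A it was 15 with 16, lower with a change of -2.07% (-0.030 ± 0.0066, edgeR adjusted p = 0.0267), which missed the threshold without WT 2, WT 3, I53A 1 or I53A 2 (adjusted p of 0.132, 0.0577, 0.165 and 0.285). Of all pairs, 2.34% were called (1.17% higher and 1.17% lower). The pairs 12 with 19 and 12 with 18, whose I53A libraries lay below every WT library, did not pass, with log2 differences of -0.067 ± 0.026 (edgeR adjusted p = 0.132) and -0.043 ± 0.016 (adjusted p = 0.114). The groups did not overlap in 4 of the 10 pairs, beside 29.8% of all pairs.

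In KO the called pair was 12 with 18, higher by 3.54% than in WT (0.050 ± 0.014, edgeR adjusted p = 0.0478), beside 9.36% of all pairs called (4.09% higher and 5.26% lower). The call rested on single libraries: leaving out any library but WT 1 moved its adjusted p to between 0.0654 and 0.348, while without WT 1 it was 8.69e-05. The groups overlapped in all 10 pairs, beside 26.9% of pairs without overlap. The pair 18 with 19 had a difference of 0.045 ± 0.022 (edgeR adjusted p = 0.208) and the other 8 pairs lay between -0.0040 and 0.018. I53A and KO share their WT libraries in these comparisons.

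**Figure D5:**
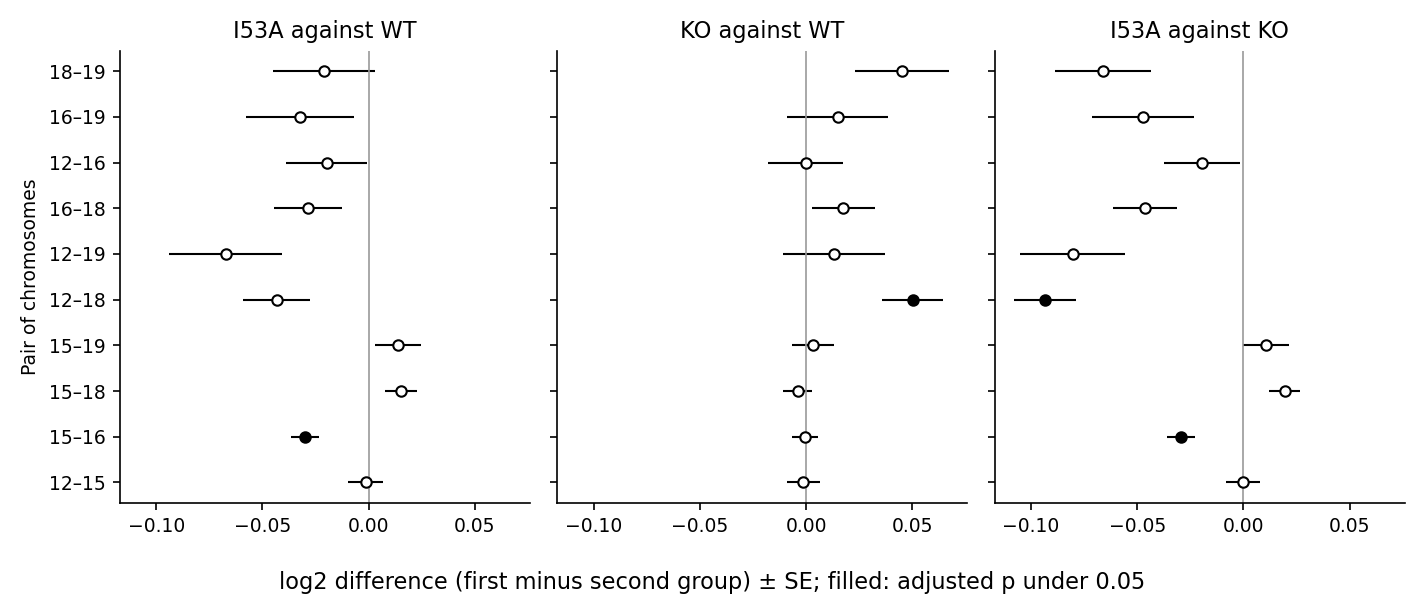
Log2 difference between groups (horizontal axis) with its standard error for each of the 10 pairs of chromosomes (rows), from edgeR, with a panel for each comparison. Filled points have an adjusted p under 0.05; these are 15 with 16 for I53A against WT, 12 with 18 for KO against WT, and both pairs for I53A against KO.

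The outcome against WT turned on which WT libraries were used. With WT 3 and WT 4 as the only WT libraries, a choice made after the data were seen, all 6 pairs without chromosome 15 were higher in KO than in WT, from 0.043 ± 0.0086 for 12 with 16 to 0.079 ± 0.0095 for 12 with 18 (edgeR adjusted p of 0.00393 and 0.000117). That is 6 of the 10 pairs, beside 18.7% of all pairs. None of the 10 was called between I53A and WT 3 and 4, beside 1.75% of all pairs. By edgeR, 3 of the 10 had an unadjusted p under 0.05, beside 34 of all autosome pairs. Between I53A and KO the smaller spread of that fit gave 7 of 10, beside 26.9%. Libraries with a rescued share above 35% are WT 3, WT 4, I53A 1 and both KO libraries, so for KO against WT they repeat the same comparison with a spread estimated from fewer libraries. In that fit the difference of KO from WT in contacts of chromosome 12 with 18, 19 and 16 was 0.079, 0.060 and 0.043, with edgeR adjusted p of 0.0272, 0.0347 and 0.0481. The extra chromosome 15 ends and the low rescued share of WT 1 and WT 2 go with the higher values of those libraries in the 6 pairs, and their part in the result was not tested. I53A 2, whose rescued share was also low, had a mean of 0.082 over the 6 pairs, beside 0.074 in I53A 1. The KO libraries also had 8.99% and 9.15% of their trans ends on chromosome 11, against 6.30% to 6.57% in the other 6. With chromosomes 1, 11 and 15 left out, 12 with 18 differed by 0.041 ± 0.013 between KO and WT (edgeR adjusted p = 0.0643) and by -0.081 ± 0.014 between I53A and KO (adjusted p = 0.00375).

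The level itself depended on how the expected count was made. When it was the plain product of both chromosomes' trans totals, without correction for a chromosome's lack of trans pairs with itself, the mean of the 6 pairs was 0.058, 0.022 and 0.077 in WT, I53A and KO. The order of the group means was the same as with the correction.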

How the data were processed

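The authors deposited counts of unique Hi-C read pairs for each pair of chromosomes in 8 libraries. The build was mm9, per the submitters' processing notes, and the aligner and pair caller are not given in the sources used here, nor whether the numbers pool the NextSeq test run with the HiSeq run. Lengths, GC content and genes came from NCBIM37 with its gene annotation. A table of the whole series held the same 8 libraries and 3 pooled genotype columns, which were not used. The members and lists were chosen with earlier results of these data known, and all 10 pairs were named by rule.

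Expected counts matched every chromosome's trans total over chromosomes 1 to 19, with the diagonal kept empty (iterative proportional fitting). Their logarithm was the offset in edgeR 4.0.16 (R 4.3.3), with 1 mean per genotype over all 8 libraries. The negative binomial dispersion was set to 0 and the spread between libraries entered through the quasi-dispersion (median 3.06), because the default estimate lay at the lower edge of its grid (9.77e-05), where the deviance of such large counts was computed wrongly (median 2245 against 15.3). DESeq2 1.42.0 and limma 3.58.1 were alternatives. The edgeR, DESeq2 and limma fits of KO against WT were tested on simulated data. Library replicates differed by chi-square beyond counting noise, so none was a copy. The labels do not say that replicate numbers mark a shared batch, so the main fit has no block. Deviations of same-numbered libraries from their group means correlated at 0.396 between I53A and KO. Between WT and the RING1B lines the correlations ran from -0.396 to 0.227. With 2 libraries in I53A and in KO, both replicate numbers must give the same value, so it cannot settle whether they share a batch.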

Additional observations from a re-analysis of the deposited data

Results flagged for a closer look

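The pair 12 with 18 was drawn out because the difference between the RING1B lines, tested in itself, passed: I53A minus KO was -0.093 on the log2 scale by edgeR. The pair 15 with 16 was drawn out for the same reason, at -0.030. Among 13 measures checked over the 4 WT libraries for one library far from the others, 0 were found, where chance gives about 0.65. The check is not built to flag 2 libraries that depart together. WT 1 and WT 2 did so in the share of the 10 pairs, with 3.97% and 3.91% against 3.32% and 3.35% in WT 3 and WT 4. The share expected from the trans totals was 3.76% and 3.77% against 3.22% and 3.25%, so most of this gap lay in the totals.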

How the results depend on the processing

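The number of the 10 pairs called between I53A and KO (2) became 0 with limma on log2 ratios, 7 with only the 2 groups compared, 5 with the rescued share as a batch term and 7 with WT 3 and WT 4 as the only WT. It was 5 with edgeR's default dispersion. For I53A against WT (1) it was 0 with TMM scaling in place of expected counts, 0 among libraries of high rescued share, 0 with WT 3 and WT 4 only and 3 with the default dispersion. For KO against WT (1) it was 0 with limma on plain or scaled ratios and with chromosome X included. It was also 0 with only the 2 groups compared, and 0 of the 6 pairs that remain without chromosomes 1, 11 and 15. With TMM and with high rescued share it was 3, and with WT 3 and WT 4 only it was 6. Leaving out 1 library gave 1 to 6, 0 to 3 and 0 to 3.

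Of all autosome pairs, the 19 called between I53A and KO became 0 with limma on log2 ratios, 8 with scaled ratios, 36 with TMM, 12 without chromosomes 1, 11 and 15, 47 with 2 groups, 46 with WT 3 and WT 4 only and 60 with the default dispersion (7 to 35 leaving out 1 library). The 4 called between I53A and WT became 19 with DESeq2, 0 with TMM, 2 without chromosome 15, 2 without 1, 11 and 15, 0 with high rescued share and 35 with the default dispersion (0 to 23). The 16 called between KO and WT became 0 with either limma fit, 32 with TMM, 9 with high rescued share, 32 with WT 3 and WT 4 only and 70 with the default dispersion (0 to 26). With the replicate number as a block, 31, 31 and 30 pairs were called for I53A against WT, KO against WT and I53A against KO, and 5, 1 and 4 of the 10. For KO against WT the pair called was then 12 with 16 (-0.038, edgeR adjusted p = 0.0190), and 12 with 18 was at 0.025 (adjusted p = 0.218). For I53A against WT the block added calls for 12 with 16, 12 with 18, 12 with 19 and 16 with 18, at -0.058, -0.069, -0.108 and -0.053. The libraries share only a number, and WT 3 and WT 4 have no partner.

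The plain product of totals took the mean of the 10 pairs to 0.025 in WT, -0.0019 in I53A and 0.028 in KO, and of the 6 pairs to 0.058, 0.022 and 0.077. The median in place of the mean gave 0.093, 0.062 and 0.115 for the 10. Without chromosomes 1 and 11, I53A and KO had 0.040 and 0.073 over the 10 and 0.068 and 0.123 over the 6. The causes were not tested. Among single differences of the 10 pairs, 0 of those called turned their sign, and 16 of 30 turned it in 52 fits in all, each with a main difference of at most 0.032. The filter on low counts removed no pair. WT 3 and WT 4 as the only WT, the default dispersion and the GC line were added after seeing the data. With 2 libraries per RING1B line, the spread within I53A and KO is poorly known. In WT the SD between libraries was 0.033 to 0.065 for the 6 pairs without chromosome 15. Counting alone gave an interval of at most 0.016 to either side, so there the spread, not depth, limits comparisons with WT. For the pairs with chromosome 15 the WT SD ran from 0.0024 (15 with 18) to 0.016 (12 with 15). Depth cannot be set aside for those pairs.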
